A study of Mus musculus with 48 samples.

Results

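The genes described here are those of the thioredoxin system, which holds the enzymes that aurothioglucose (ATG) inhibits. They were chosen by name as the thioredoxins Txn1 and Txn2, the thioredoxin reductases Txnrd1, Txnrd2 and Txnrd3, the thioredoxin-interacting protein gene Txnip, and the glutaredoxins Glrx and Glrx2. These are 8 of the 47561 genes listed, and each of the 8 was above 1 FPKM (fragments mapped to a gene, scaled to its transcript length and to the library's total) in every mouse. RNA was sequenced from the lungs of 48 adult mice in 16 groups of 3, 1 library per mouse. The mice were C3H/HeN (C3H) or C57Bl/6 (C57B), male (M) or female (F), giving the names C3HM, C3HF, C57BM and C57BF. Each mouse received 1 intraperitoneal injection of ATG at 25 mg/kg or of saline, and then breathed room air or more than 95% oxygen (hyperoxia) for 96 h. No mouse carried an altered gene, the sources differ on the C57Bl/6 substrain, and the libraries came from whole lung, so every value is an average over all of its cell types. The study asked how strain and sex set lung gene expression and responses to ATG and to hyperoxia.

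Thioredoxin is a small protein that uses a pair of cysteines to reduce disulfide bonds in other proteins, and thioredoxin reductase recharges it with electrons from NADPH. The reductases are selenoproteins, and gold compounds such as ATG bind the selenocysteine near the end of the protein and block the enzyme. Txnip binds reduced thioredoxin and restrains it, and glutaredoxins do related work with glutathione as the electron source. Txn1, Txnrd1 and Glrx act mainly in the cytosol, Txn2 and Txnrd2 in mitochondria, Glrx2 mostly in mitochondria, and Txnrd3 joins a glutaredoxin domain to a reductase. Txnrd1 is a known target of Nrf2, the transcription factor that drives antioxidant genes. Enzyme activity was not measured in the data used here.

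The bases that encode the site of gold binding are shown because they are what the 3 reductases share. Each line holds the last 10 codons with the stop codon, on the coding strand of GRCm38 (mm10), and the capitals mark the cysteine codon and the TGA codon that is read as selenocysteine.
Txnrd1: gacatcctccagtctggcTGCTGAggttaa
Txnrd2: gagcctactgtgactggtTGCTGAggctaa
Txnrd3: gacattactcagaaaggcTGCTGAggctag
These stretches lie at chr10:82896016-82896045 (plus strand), chr16:18477751-18477780 (plus strand) and chr6:89674768-89674797 (plus strand), each within the last coding exon. The annotated selenocysteine is codon 498 of Txnrd1, codon 526 of Txnrd2 and codon 614 of Txnrd3, and in all 3 it is the codon before the last amino acid. Of the 30 bases, 18 were identical between Txnrd1 and Txnrd2, and 21 between Txnrd1 and Txnrd3 and between Txnrd2 and Txnrd3.

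The active sites of the thioredoxins and glutaredoxins are shown in the same way, with the paired cysteine codons in capitals, since these are the groups that the reductases or glutathione recharge.
Txn1: gctacgtggTGTggacctTGCaaaatgatc
Txn2: gcacagtggTGTggccccTGCaagatccta
Glrx: aagcccaccTGCccctacTGCagaaagacc
Glrx2: aaaacatccTGCtcttacTGTtccatggcc
The Txn1 stretch is at chr4:57951812-57951841 (minus strand), the Glrx stretch at chr13:75840026-75840055 (plus strand) and the Glrx2 stretch at chr1:143745083-143745112 (plus strand). The Txn2 stretch spans an exon junction between positions 77924642 and 77927696 of chromosome 15 (minus strand). Txn1 and Txn2 had 21 of 30 bases in common, and Glrx and Glrx2 had 18. Txnip has no such site and works by binding thioredoxin.

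The genes lie on 8 different chromosomes and all are protein coding. In GRCm38, Txnrd1 (ENSMUSG00000020250) is at chr10:82833951-82897712, Txnrd2 (ENSMUSG00000075704) at chr16:18426384-18479073 and Txnrd3 (ENSMUSG00000000811) at chr6:89643988-89675529. Txn1 (ENSMUSG00000028367) is at chr4:57943373-57956411, Txn2 (ENSMUSG00000005354) at chr15:77915047-77929006 and Txnip (ENSMUSG00000038393) at chr3:96557957-96561883. Glrx (ENSMUSG00000021591) is at chr13:75839868-75850154 and Glrx2 (ENSMUSG00000018196) at chr1:143716338-143749676. Some of them share sequence with other listed genes, and how the authors divided such reads is not given in the sources used here. The antisense gene Gm15441 lies across all of Txnip and covers 15.7% of the 50-base windows of its exons. The processed pseudogene Txn-ps1 on chromosome 1 (44463923 to 44464231) holds 2.50% of the windows of Txn1, and its own values kept a nearly fixed ratio to those of Txn1, with Txn1 at 0.201 to 0.271 times Txn-ps1 across the 48 mice. The level of Txn1, its rank among the 8 genes and every ratio to it therefore depend on how reads were divided between the pair. Txnrd1 and Txnrd3 shared no window with any other gene.

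The FPKM values of a mouse summed to between 510933 and 748290 over all genes, and read totals per library are not given in the table used here. In C3HM given saline in room air, mice 1 and 3 stood apart from mouse 2. The gene values of mice 1 and 3 had median ratios to the geometric mean over mice of 0.786 and 0.819, against 0.896 to 1.10 in the other 46 mice. The highest Scgb1a1 share, 30.2%, was that of mouse 1, and hemoglobin genes summed to 67957 FPKM in mouse 3. Where leaving out these mice ended a call named below, the value without them is given. The labels give no sequencing batch, and same-numbered mice do not occur in different groups.

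In lungs of mice given saline in room air, Txnip was the most abundant of the 8 transcripts and Txnrd3 the least. Over the 12 mice, Txnip had a lowest, median and highest value of 249, 293 and 747 FPKM, Txn1 of 129, 149 and 181 FPKM, and Txn2 of 50.8, 67.8 and 89.7 FPKM. Txnrd1 followed at 14.8, 32.2 and 40.3 FPKM, then Glrx at 22.8, 27.2 and 45.5 FPKM and Glrx2 at 12.4, 22.4 and 29.5 FPKM. Txnrd2 had 5.78, 9.11 and 13.2 FPKM, and Txnrd3 had 5.25, 6.94 and 7.96 FPKM. Txnip was above Txn1, Txn1 above Txn2 and Txn2 above Txnrd1 with no overlap between the mice, whereas the 4 lower neighbouring pairs overlapped. Mitochondrial Txn2 was below its cytosolic partner Txn1 in all 48 mice. Glrx2 was below Glrx in 39 of the 48, and in 10 of the 12 given saline in room air. The cytosolic reductase exceeded the mitochondrial one in every mouse, with Txnrd1 at 1.51 to 6.33 times Txnrd2 in room air.

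**Figure D1:**
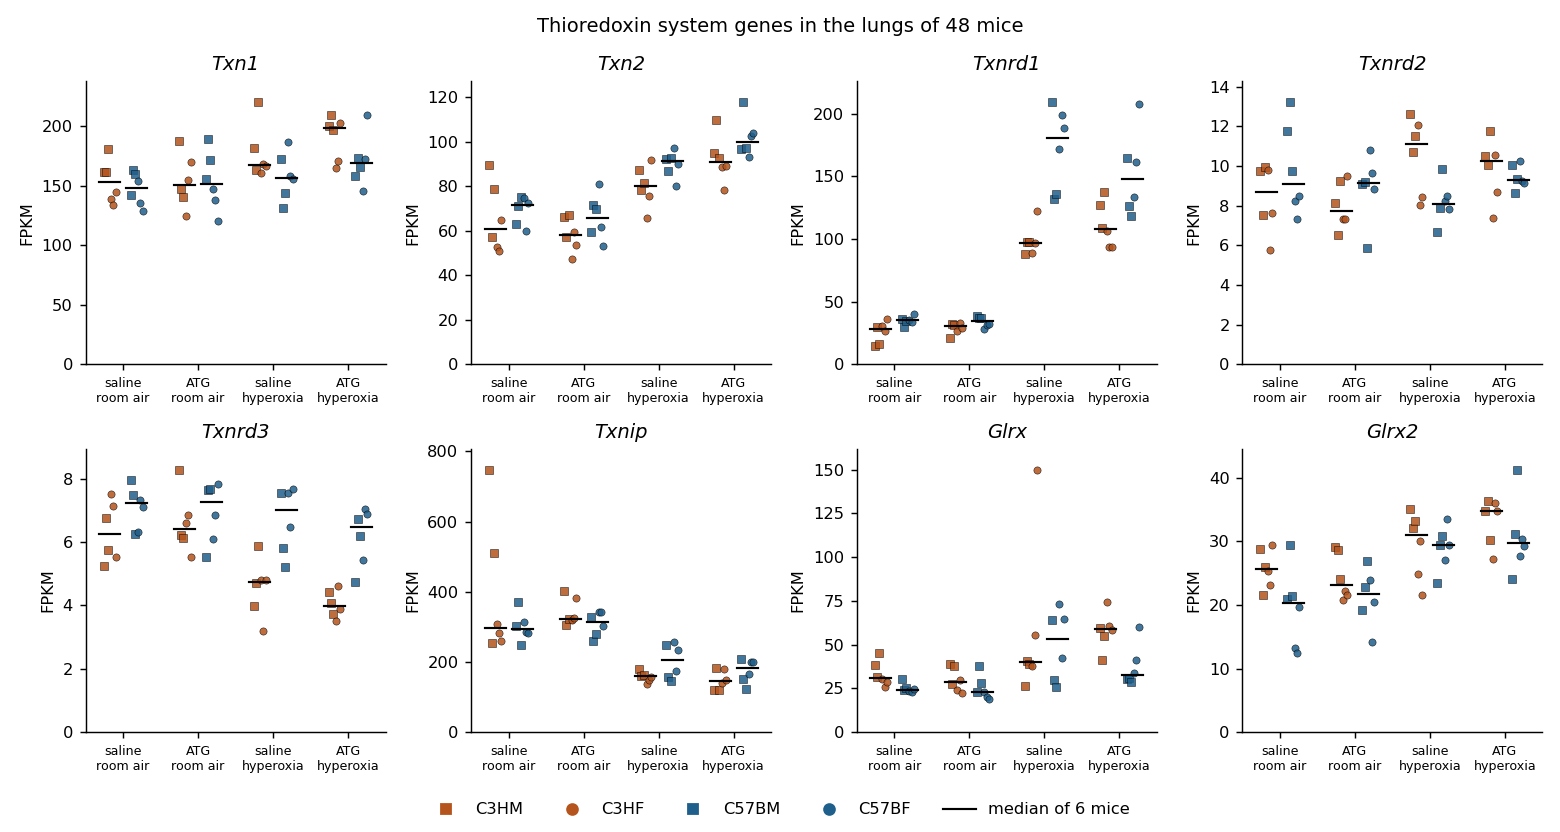
FPKM of each of the 8 genes (vertical axes, linear from 0) in each of 48 mice, by injection and air (horizontal axis), with colour for strain, marker shape for sex and a bar at the median of 6 mice. The 24 hyperoxia values of Txnrd1 all sat above the 24 room air values, and the highest Txnip value, 747 FPKM, was C3HM mouse 1.

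The first comparison was ATG against saline in room air, which asks whether the inhibitor changed mRNA of its own targets. No difference among the 8 genes passed the test. Txnrd1 had a lowest, median and highest value of 14.8, 32.2 and 40.3 FPKM after saline and of 21.2, 31.7 and 38.6 FPKM after ATG, so the ranges overlapped almost fully. Its difference was 0.09 on the log2(FPKM + 1) scale with a 95% interval of -0.12 to 0.29 (limma, adjusted p = 0.836). Txnrd2 had medians of 9.11 FPKM after saline and 8.97 FPKM after ATG, and Txnrd3 of 6.94 and 6.72 FPKM. The log2 differences of the 8 genes ran from -0.11 for Txn2 to 0.09 for Txnrd1, and 0 of 8 had an adjusted p under 0.05, against 0.0185% of all genes tested (3 of 16228, with 1077 at an unadjusted p under 0.05). Without C3HM mice 1 and 3 the Txnrd1 difference was -0.06, and again 0 of 8 passed.

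In hyperoxia, ATG again left the 8 genes without a difference that passed the test. Txnrd1 had 88.3, 127 and 209 FPKM (lowest, median and highest) after saline and 93.2, 127 and 208 FPKM after ATG. The 2 ranges nearly coincided, and the log2 difference was -0.01 with a 95% interval of -0.20 to 0.17. Txn2 came nearest to the threshold, at 65.7, 86.9 and 97.0 FPKM after saline and 78.3, 95.7 and 118 FPKM after ATG. The 2 groups of 12 overlapped, and the log2 difference of Txn2 was 0.19 ± 0.06 (SE; adjusted p = 0.0569). It passed in 3 of the 24 fits that left out 1 mouse, those without C57BM mouse 22, C3HF mouse 33 or C57BF mouse 43, with log2 differences of 0.20, 0.22 and 0.21. Of all genes tested in hyperoxia, 5.47% passed, and of the 8 genes 0 did. The ATG effect on Txn2 was 0.30 ± 0.10 (SE) higher in hyperoxia than in room air on the log2 scale (adjusted p = 0.0885), and 0 of 8 genes passed this test of the difference, against 2.77% of all genes. The strain difference of the ATG effect in room air passed for 0 of 8 genes and for 0% of all genes (0 of 16228, with 743 at an unadjusted p under 0.05).

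**Figure D2:**
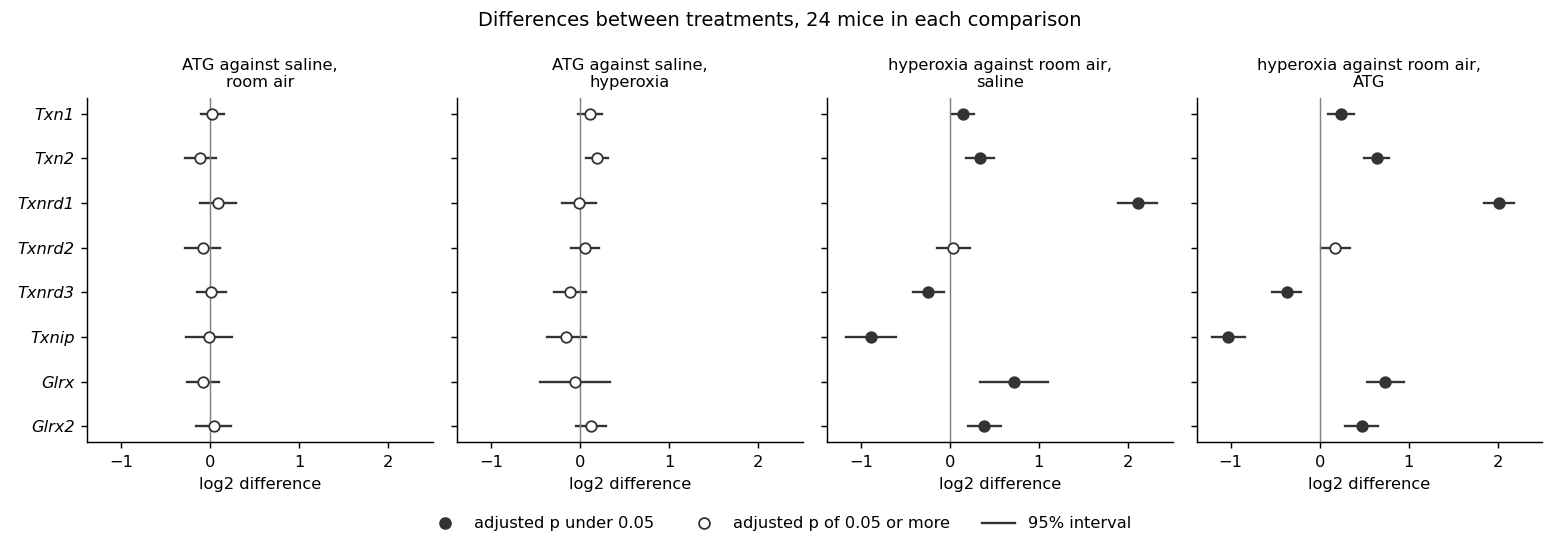
Differences of the 8 genes on the log2(FPKM + 1) scale (horizontal axes) for ATG against saline and for hyperoxia against room air, 24 mice in each panel. Points are limma estimates, lines are 95% intervals and filled points had an adjusted p under 0.05, with Txnrd1 at 2.11 and 2.01 in the hyperoxia panels and no filled point in the ATG panels.

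Hyperoxia changed most of the system, as it changed most of all genes tested. After saline, 7 of 8 genes changed, of which 5 rose (Txnrd1, Glrx, Glrx2, Txn2 and Txn1) and 2 fell (Txnip and Txnrd3). Of the 5, Txn2 did not pass after saline with quantile normalization, and Txn1 turned direction. The background was high, since 60.1% of all 16321 genes tested passed, 31.8% higher and 28.3% lower. After ATG the same 7 genes passed in the same directions, while 61.8% of all genes did, 35.8% higher and 26.0% lower. The median log2 difference of the 8 genes was 0.24 after saline and 0.36 after ATG, beside 0.01 and 0.06 over all genes tested. The comparisons use different mice, 24 given saline and 24 given ATG. In whole lung, fewer cells of a type and less RNA per cell cannot be told apart.

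Txnrd1, the cytosolic reductase, had the largest log2 difference of the 8. In room air after saline its values were 14.8, 29.8 and 16.2 FPKM in C3HM, 30.8, 26.3 and 36.0 FPKM in C3HF, 36.0, 29.4 and 34.8 FPKM in C57BM and 35.4, 33.6 and 40.3 FPKM in C57BF. In hyperoxia after saline they were 88.3, 97.9 and 97.8 FPKM in C3HM, 88.9, 96.4 and 123 FPKM in C3HF, 209, 132 and 136 FPKM in C57BM and 172, 199 and 189 FPKM in C57BF. Every hyperoxic mouse was above every room air mouse. The means over 12 mice were 30.3 ± 7.87 (SD) and 136 ± 45.3 FPKM, and the log2 difference was 2.11 ± 0.10 (SE; adjusted p = 1.97e-12). After ATG the difference was 2.01, and the ranges, 21.2 to 38.6 and 93.2 to 208 FPKM, did not overlap either. In the 8 combinations of strain, sex and injection (3 against 3 mice) the fold of the means was 3.31 to 5.50, with no overlap in any of the 8. For this and the like counts of overlap below, the share of all genes is not given, so they are descriptions. Without C3HM mice 1 and 3 the difference after saline was 1.96.

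Of the other reductases, Txnrd3 fell and Txnrd2 did not pass the test. Txnrd2, the mitochondrial reductase, had 5.78, 9.11 and 13.2 FPKM (lowest, median and highest) in room air and 6.66, 8.46 and 12.6 FPKM in hyperoxia after saline, and the ranges overlapped almost fully. Its log2 differences were 0.04 after saline and 0.18 after ATG (adjusted p = 0.0604 for the latter), and it was the only gene of the 8 to pass neither test. Txnrd3, the reductase with a glutaredoxin domain, fell from a median of 6.94 to 5.52 FPKM after saline and from 6.72 to 4.68 FPKM after ATG, with overlapping ranges. Its log2 differences were -0.24 and -0.37. Within C57B mice alone they were -0.07 and -0.15 and passed neither test, and the test of the difference between strains after saline did not pass for this gene either. In hyperoxia Txnrd1 stood at 7.00 to 31.4 times Txnrd2 within a mouse, above the highest room air ratio of 6.33 in each of the 24 mice.

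Txnip, the thioredoxin inhibitor, fell. After saline it had 249, 293 and 747 FPKM (lowest, median and highest) in room air and 136, 162 and 258 FPKM in hyperoxia, and after ATG 259, 324 and 402 FPKM in room air and 119, 159 and 207 FPKM in hyperoxia. The ranges met only at their edges after saline and did not overlap after ATG. Its log2 differences were -0.89 ± 0.13 (SE; adjusted p = 1.03e-05) after saline and -1.03 (adjusted p = 3.90e-09) after ATG. In all 8 combinations of strain, sex and injection the hyperoxic mice were below the room air mice without overlap, at 0.334 to 0.760 of the mean. In C3HM given saline in room air Txnip was 747, 253 and 510 FPKM in mice 1, 2 and 3, and without mice 1 and 3 the difference after saline was -0.68 (adjusted p = 1.79e-05). The antisense gene Gm15441 was at 4.15 to 48.4 FPKM in room air and 14.1 to 43.2 FPKM in hyperoxia, and its own log2 difference was -0.12 after saline (adjusted p = 0.631) and -0.77 after ATG (adjusted p = 2.30e-05). Strand use in the counting is not given in the sources used here, so reads of the pair cannot be told apart in their shared bases.

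The thioredoxins had small positive differences. Txn2, the mitochondrial thioredoxin, had medians of 67.8 and 86.9 FPKM in room air and hyperoxia after saline, and 60.6 and 95.7 FPKM after ATG. Its log2 differences were 0.34 and 0.64, it was higher in all 8 combinations of strain, sex and injection, and in 7 of them the mice did not overlap. After saline it was 0.17 with quantile normalization (adjusted p = 0.0662). Txn1, the cytosolic thioredoxin, had 129, 149 and 181 FPKM (lowest, median and highest) in room air and 131, 165 and 220 FPKM in hyperoxia after saline. These ranges overlapped over most of their length, and its log2 differences were 0.15 after saline (adjusted p = 0.0421) and 0.24 after ATG. That direction turned with quantile normalization, to -0.06 and -0.03, and the call after saline was lost in 12 of the 24 fits that left out 1 mouse.

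Both glutaredoxins rose. Glrx had 22.8, 27.2 and 45.5 FPKM (lowest, median and highest) in room air and 25.8, 41.5 and 150 FPKM in hyperoxia after saline, and 19.0, 25.9 and 38.9 FPKM and 28.4, 48.1 and 74.3 FPKM after ATG. The ranges overlapped after both injections. After saline the hyperoxia median of 41.5 FPKM was below the highest room air value of 45.5 FPKM. The log2 differences were 0.72 ± 0.18 (SE; adjusted p = 0.00198) and 0.74. Glrx was higher in hyperoxia in 7 of 8 combinations of strain, sex and injection, without overlap in 5. In C3HM given saline it was lower, with means of 38.3 FPKM in room air and 35.3 FPKM in hyperoxia. The value of 150 FPKM was C3HF mouse 33, whose group otherwise had 37.9 and 55.4 FPKM, and without this mouse the difference after saline was 0.58 (adjusted p = 0.00138). Neutrophil markers (S100a8, S100a9, Csf3r, Retnlg and Ly6g) summed to 6201 FPKM in mouse 33 and to 177 and 1457 FPKM in its group, and their part in the result was not tested. Glrx2 had medians of 22.4 and 29.8 FPKM after saline and 22.5 and 30.8 FPKM after ATG, with log2 differences of 0.39 and 0.47. Hyperoxic mice had more Glrx2 in 7 of 8 combinations of strain, sex and injection, without overlap in 5.

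Markers of several lung cell types moved with hyperoxia as well. The 5 alveolar type 2 markers summed to 24053 to 48867 FPKM in the 24 room air mice and to 5697 to 21494 FPKM in the 24 hyperoxic mice, although 1 of the 5, Sftpb, rose (0.40 after saline and 0.36 after ATG) while Sftpc fell by 2.26 after saline. The 3 club cell markers summed to 58111 to 230687 FPKM in room air and to 6935 to 43458 FPKM in hyperoxia. The 4 hemoglobin genes summed to 3341 to 67957 FPKM in room air and to 305 to 2004 FPKM in hyperoxia. None of these 3 lists overlapped between the 2 kinds of air, and the 5 neutrophil markers, at 59.2 to 3606 and 154 to 6201 FPKM, did. All 5 neutrophil markers still rose after saline (Retnlg by 2.49). Of them, Csf3r did not pass without C3HM mice 1 and 3 (0.90, adjusted p = 0.0539). S100a8, S100a9 and Retnlg rose after ATG, but S100a8 and S100a9 did not pass there with quantile normalization. Among fibroblast markers Pdgfra rose by 1.32 and Tcf21 fell by 1.82 after saline, while Col1a1 and Col1a2 did not pass. After saline all 4 B cell markers fell (Cd79a by 1.44) and all 4 T cell markers fell (Cd3e by 1.04), 3 of 4 alveolar macrophage markers rose (Chil3 by 2.14) and 1 fell (Ear2), and of 4 endothelial markers 1 rose and 2 fell (Tek by 1.40). Also, 3 of 4 cardiac muscle markers, 3 of 4 cycling cell markers, 2 of 4 alveolar type 1 markers and 1 of 3 ciliated cell markers fell. Beside these counts, 31.8% of all genes tested rose after saline and 28.3% fell. With quantile normalization the club cell marker Scgb1a1 (-0.21) and the ciliated cell marker Dnah5 (-0.30) did not pass after saline. Nor did the cycling cell marker Mki67 (-0.28) or Cdh5 (0.17), the endothelial marker that rose. No marker in any list was at 0 in all mice. Their part in the changes of the 8 genes was not tested.

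Air was the largest single source of variation for 5 of the 8 genes. Of the sum of squares of log2(FPKM + 1) over 48 mice, air took 88.8% for Txnrd1, 69.2% for Txnip, 59.3% for Txn2, 38.5% for Glrx2 and 38.2% for Glrx. For Txnrd3, mice within groups took 28.1%, air 27.5%, strain 26.6% and interactions of the factors 16.9%. For Txn1, mice within groups took 40.2% and air 22.7%, and for Txnrd2 mice within groups took 48.2% and air 5.18%. The main effect of ATG took at most 2.91% for any of the 8, the value for Txn1, and 0.0294% for Txnrd1. Interactions, those of ATG included, took 41.0% for Txnrd2, 23.1% for Glrx, 19.3% for Txn1 and 2.72% for Txnrd1.

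The balance within a mouse was described by ratios to Txn1. Txnip was 1.56, 2.12 and 4.63 times Txn1 (lowest, median and highest) in room air after saline and 0.742, 1.01 and 1.52 times in hyperoxia. After ATG it was 1.37, 2.20 and 2.58 times in room air and 0.603, 0.876 and 1.31 times in hyperoxia. The ratio did not overlap between the 2 kinds of air after either injection. Txnrd1 was 0.0896, 0.219 and 0.313 times Txn1 in room air after saline and 0.444, 0.830 and 1.26 times in hyperoxia, again without overlap. After ATG it was 0.113, 0.215 and 0.265 times in room air and 0.460, 0.708 and 1.04 times in hyperoxia. Values above 1, with more Txnrd1 than Txn1 per length, were seen in C57B mice in hyperoxia, within the limit that reads of Txn1 and Txn-ps1, whose own median in room air was 657 FPKM, may have been divided between them.

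**Figure D3:**
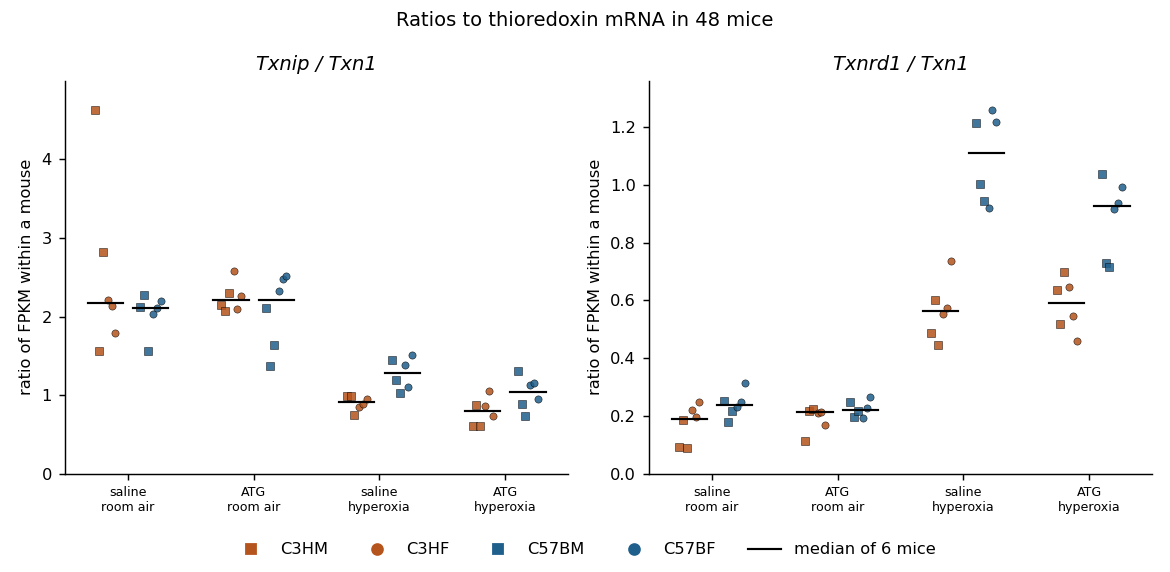
Ratio of Txnip to Txn1 and of Txnrd1 to Txn1 FPKM within each of 48 mice (vertical axes, linear from 0) by injection and air, with colour for strain, marker shape for sex and a bar at the median of 6 mice. Txnip to Txn1 ran from 1.37 to 4.63 in room air and from 0.603 to 1.52 in hyperoxia, and Txnrd1 to Txn1 from 0.0896 to 0.313 and from 0.444 to 1.26.

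Genes of related pathways were taken from lists. The background for every count was 31.8% of all genes higher and 28.3% lower after saline, and 35.8% higher and 26.0% lower after ATG. Of the 12 targets of Nrf2 other than the 8 genes, 12 rose in hyperoxia after saline and 12 after ATG, with median log2 differences of 1.33 and 1.36. With quantile normalization after ATG 11 of 12 did, Tkt excepted. The 4 with the largest changes were Gclc, the catalytic subunit that starts glutathione synthesis (2.62 after saline and 2.78 after ATG), Slc7a11, the cystine importer (2.37 and 2.54), Srxn1, which restores oxidised peroxiredoxins (2.23 and 2.12), and Hmox1, which degrades heme (2.14 and 1.99). In the metal response list of 4 genes, 3 rose after saline with a median of 2.26. These were the metallothioneins Mt2 (5.74) and Mt1 (3.93), which bind metal ions, and the factor Mtf1 (0.58). After ATG the same 3 genes rose (5.34, 3.41 and 0.62) and the zinc exporter gene Slc30a1 fell by 0.22.

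The list of thioredoxin-dependent enzymes, which also holds the kinase gene Map3k5 and Txndc17, did not move as 1 group. Of 14 tested, 8 rose and 5 fell after saline, with a median log2 difference of 0.28, and 7 rose and 4 fell after ATG, with a median of 0.12. These are 13 and 11 of 14 genes, beside 60.1% and 61.8% of all genes that passed in either direction. Without C3HM mice 1 and 3, 7 rose and 4 fell after saline, and Msrb1 (0.38, adjusted p = 0.0797) and Rrm2 (-0.36, adjusted p = 0.0627) did not pass. The largest changes after saline were Srxn1 (2.23), the methionine sulfoxide reductase Msrb2 (-1.53), the peroxiredoxin Prdx2 (-0.74) and Rrm1 (0.53), a subunit of ribonucleotide reductase. After ATG they were Srxn1 (2.12), Msrb2 (-1.06), the kinase Map3k5 (-0.69) and the mitochondrial peroxiredoxin Prdx3 (0.64). Quantile normalization gave 4 higher and 5 lower after saline, and 5 and 6 after ATG. Of 12 proteins with a thioredoxin fold, 5 rose and 3 fell after saline (median 0.05), led by Glrx3 (0.77), Txnl1 (0.65) and the endoplasmic reticulum oxidoreductase Pdia6 (-0.65), and 7 rose and 3 fell after ATG (median 0.18). The sign of the median of that list turned with quantile normalization, to -0.04 and -0.02, and the 8 of 12 that passed after saline are near the share of all genes.

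Txnip is an arrestin-like protein, and its relatives and regulators passed no more often than all genes. Of 8 tested after saline, 2 rose and 2 fell. The glucose transporter gene Slc2a1, whose product Txnip removes from the cell surface, rose by 1.81 on the log2 scale, and the glucocorticoid receptor gene Nr3c1 (-0.62), the arrestin-like Arrdc1 (-0.58) and Mlx (0.35), the partner of the factors that drive Txnip, were the other 3. Mlx did not pass without C3HM mice 1 and 3 (0.24, adjusted p = 0.104) or with quantile normalization (0.24, adjusted p = 0.0684). After ATG 2 of 9 rose and 3 fell, with Slc2a1 at 1.63. Of 7 genes for selenocysteine insertion, which all 3 reductases need, 4 rose and 1 fell after saline (median 0.25) and 5 rose and 1 fell after ATG (median 0.32), with 60.1% and 61.8% of all genes passing. These included Trnau1ap (0.49 and 0.73), Eefsec (0.47 and 0.58) and Sephs2 (0.47 and 0.49), while Sephs1 was -0.29 and -0.34. Without C3HM mice 1 and 3, 2 rose and 1 fell after saline, and Eefsec was 0.29 (adjusted p = 0.0729).

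**Figure D4:**
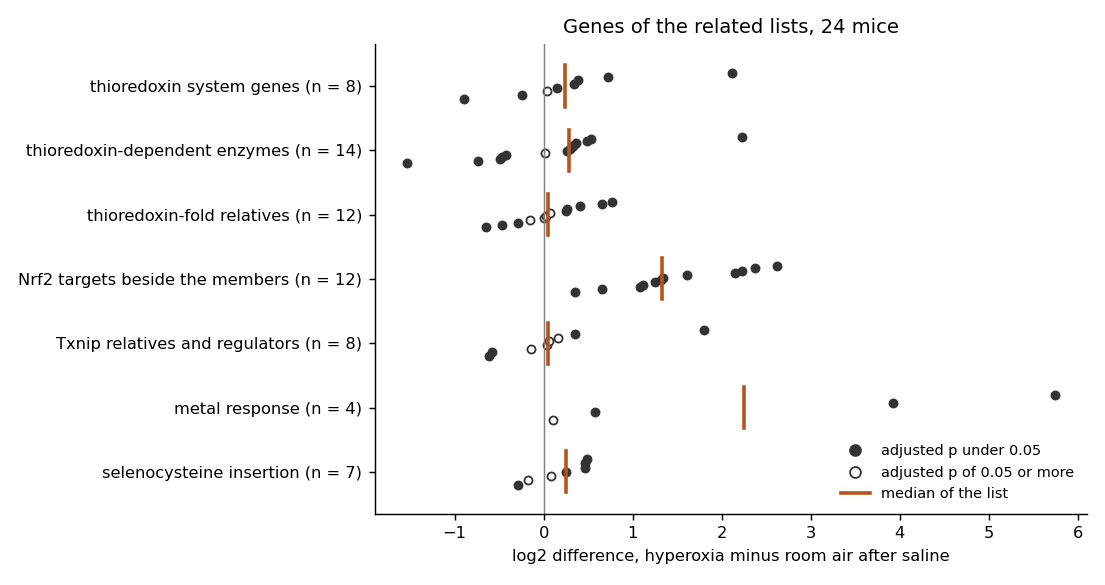
Log2 differences between hyperoxia and room air after saline (horizontal axis, 24 mice) for the 8 thioredoxin system genes and the genes of 6 related lists, 1 point per gene. Filled points had an adjusted p under 0.05 and bars mark list medians, with all 12 Nrf2 targets filled and above 0 and the thioredoxin-dependent enzymes on both sides of 0.

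For ATG in room air, 0 genes passed in each of these 6 lists. In hyperoxia, 7 of their 56 genes tested passed (12.5%), against 5.47% of all genes. Trnau1ap (0.30, adjusted p = 0.00958) and Pstk (0.32, adjusted p = 0.0219) act in selenocysteine insertion, and Glrx3 (0.32, adjusted p = 0.0133), Prdx1 (0.22, adjusted p = 0.0243), Pdia6 (0.19) and Taldo1 (0.18) were also higher after ATG, while Mlxip, which drives Txnip, was lower (-0.21). With median ratio scaling Prdx1 was 0.16 (adjusted p = 0.162), Pdia6 0.13 and Taldo1 0.12, and these 3 did not pass. Markers also moved in this comparison, with 3 of 4 alveolar macrophage markers lower after ATG (Ear2 at -1.11, Chil3 at -0.83 and Mrc1 at -0.43), 2 of 4 endothelial markers lower (Tek at -0.41 and Pecam1 at -0.32), and Pdpn (0.36) and Top2a (0.54) higher. Their part in these differences was not tested.

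The strains were first compared at baseline, in 12 room air mice with a saline injection. There 1 of 8 genes, Glrx, was higher in C3H than C57B, against 11.8% of all genes in either direction and 3.92% higher. Glrx had 25.6, 30.7 and 45.5 FPKM (lowest, median and highest) in 6 C3H mice and 22.8, 24.2 and 30.2 FPKM in 6 C57B mice. The 2 groups overlapped, and the log2 difference was 0.38 ± 0.11 (SE; adjusted p = 0.0395). This call was lost in 10 of the 12 fits that left out 1 mouse, and without C3HM mice 1 and 3 the difference was 0.24 (adjusted p = 0.176). Txnrd1 had 14.8, 28.0 and 36.0 FPKM in C3H and 29.4, 35.1 and 40.3 FPKM in C57B. Its log2 difference was -0.49 ± 0.16 (SE; adjusted p = 0.0670). The 2 lowest C3H values, 14.8 and 16.2 FPKM, were those of C3HM mice 1 and 3, which stood apart. When 1 mouse was left out, the Txnrd1 difference ran from -0.64 to -0.40. The median over all genes tested was -0.10 and moved to 0.02 with quantile normalization.

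In the other 36 mice, given ATG, hyperoxia or both, 3 of 8 genes were lower in C3H than C57B. They were Txnrd1, Txnrd3 and Txn2, against 41.3% of all genes in either direction and 19.7% lower. In hyperoxia after saline Txnrd1 had 88.3, 97.1 and 123 FPKM (lowest, median and highest) in 6 C3H mice and 132, 180 and 209 FPKM in 6 C57B mice, without overlap. In hyperoxia after ATG it had 93.2, 108 and 137 FPKM in C3H and 118, 148 and 208 FPKM in C57B, and in room air after ATG 21.2, 30.2 and 32.9 FPKM and 28.1, 34.4 and 38.6 FPKM, both with overlap. Over the 36 mice the log2 difference was -0.49 ± 0.07 (SE; adjusted p = 1.89e-06). Fitted by condition it was -0.79 in hyperoxia after saline (adjusted p = 0.000988), -0.44 in hyperoxia after ATG (adjusted p = 0.0182) and -0.24 in room air after ATG (adjusted p = 0.139).

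Txnrd3 was lower in C3H by the same comparison. In hyperoxia it had 3.19, 4.75 and 5.87 FPKM in C3H and 5.22, 7.01 and 7.68 FPKM in C57B after saline, with overlap of the ranges, and 3.51, 3.99 and 4.60 FPKM and 4.75, 6.47 and 7.05 FPKM after ATG, with none. The log2 difference over 36 mice was -0.35 ± 0.07 (SE; adjusted p = 0.00014), and by condition it was -0.48 and -0.50 in hyperoxia and -0.06 in room air after ATG. Txn2 was lower by 0.16 on the log2 scale (-0.16 ± 0.05, SE; adjusted p = 0.0142), and in no single condition did it pass. Glrx was higher in C3H (0.32, adjusted p = 0.0605, which did not pass), and in hyperoxia after ATG alone it was 0.65 (adjusted p = 0.00493).

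**Figure D5:**
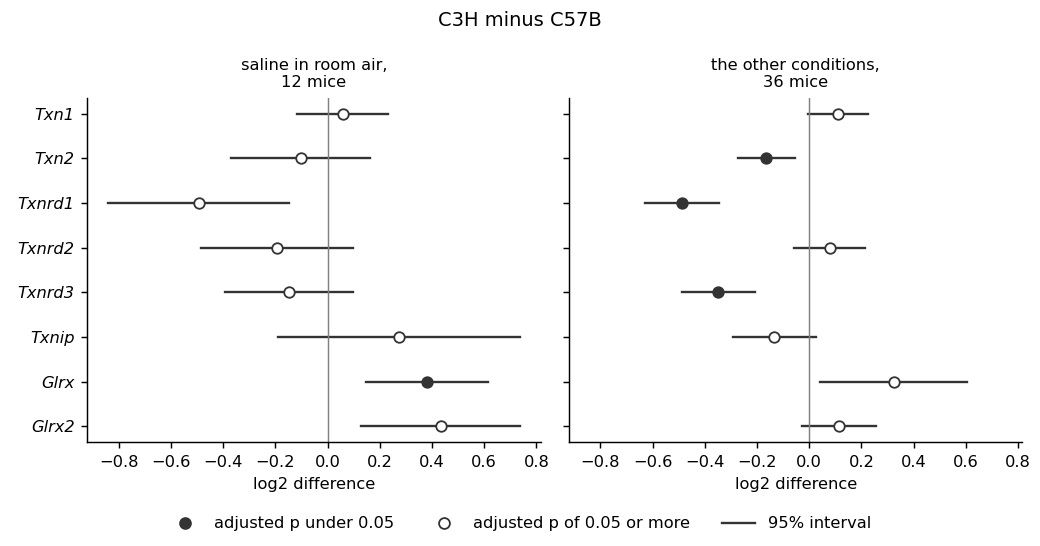
Difference between C3H and C57B on the log2(FPKM + 1) scale (horizontal axes) for the 8 genes in the 12 mice given saline in room air and in the other 36 mice. Points are limma estimates, lines are 95% intervals and filled points had an adjusted p under 0.05. Txnrd1 was at -0.49 in both panels and filled only among the 36. The 12 mice include C3HM mice 1 and 3, which had the lowest Txnrd1 values of the 12.

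Nrf2 targets were lower in C3H along with Txnrd1. In the other 36 mice 12 of 12 were lower, against 19.7% of all genes, with a median log2 difference of -0.48 against 0.00 over all genes tested. The largest were Gclc (-1.24), Osgin1 (-0.69), Hmox1 (-0.64) and Srxn1 (-0.53). After saline in room air 3 of 11 were lower, against 7.87% of all genes. They were Gclc (-1.15), Pgd (-0.42) and Me1 (-0.34), of which only Gclc passed again without C3HM mice 1 and 3. Slc2a1 was lower in C3H in the 36 mice as well (-0.75), whereas Msrb2 (0.30), Rrm2 (0.40) and Txndc12 (0.46) were higher. Cell type markers differed between strains in the same 36 mice, with Chil3 of macrophages (-2.40), S100a8 of neutrophils (-1.16) and Cd79a of B cells (-0.77) lower in C3H, and Scgb3a2 of club cells (1.51), Tek of endothelium (1.09) and Pdpn of type 1 cells (0.83) higher. In counts, 2 of 4 macrophage, 3 of 5 neutrophil and 3 of 4 B cell markers were lower, against 19.7% of all genes. Higher were 3 of 3 club, 3 of 4 endothelial and 3 of 4 type 1 markers, against 21.6% of all genes. With quantile normalization Scgb1a1 of club cells (0.21) and S100a9 of neutrophils (-1.03) did not pass. The part of the cell type markers in the strain differences was not tested. Whether the strains responded differently to hyperoxia was tested directly after saline. None of the 8 genes passed, against 11.5% of all genes, with Txnrd1 at -0.29 (adjusted p = 0.376) and Txnip at -0.60 (adjusted p = 0.146). Without C3HM mice 1 and 3 these were -0.59 (adjusted p = 0.0522) and -0.18. In that test 5 of 12 Nrf2 targets were lower, against 2.81% of all genes, with a median of -0.57 against 0.15 over all genes. Scaling moved the latter value to -0.01 with quantile normalization, where 7 of the 12 passed.

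Males and females were compared in the same 12 mice. There 0 of 8 genes passed, against 0.669% of all genes, and Txnrd1 was at -0.39 (adjusted p = 0.184) in males relative to females. C3HM mice 1 and 3 had the lowest Txnrd1 values of the 12 mice, 14.8 and 16.2 FPKM. Without C3HM mouse 2, 5 of 8 genes passed (Txn2, Txnrd1, Txnrd2, Txnip and Glrx), with mice 1 and 3, which stood apart, then forming the group. No share of all genes is given for that fit, so the 5 cannot be set against a background. The median over all genes in this comparison was -0.12 and moved to 0.00 with quantile normalization. The response of Glrx to hyperoxia after saline was 1.09 lower on the log2 scale in males than in females (-1.09 ± 0.36, SE; unadjusted p = 0.00707, adjusted p = 0.175 by limma), and 0 of 8 genes passed this test, against 0.0368% of all genes. The 6 males had 23.8, 30.7 and 45.5 FPKM (lowest, median and highest) in room air and 25.8, 34.3 and 64.0 FPKM in hyperoxia, and the 6 females 22.8, 25.1 and 30.2 FPKM and 37.9, 60.2 and 150 FPKM. The ranges overlapped in males and did not in females.

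The genes most like Txnrd1 over the 48 mice were named by Pearson correlation of log2(FPKM + 1) among 16994 genes. They were Etf1, a translation termination factor (r = 0.98), Srxn1 (0.98), the proteasome subunit gene Psmd8 (0.98), the RNA methyltransferase gene Nsun2 (0.97) and the translation initiation factor gene Eif1a (0.97). The mice fall into 2 clusters by air, and all values of a mouse share its library, so these r are descriptions. After subtracting the 16 group means they were 0.85, 0.73, 0.69, 0.74 and 0.75. The genes most like Txnip were Gm15421 (0.86), Sppl3 (0.86), C130074G19Rik (0.86), Fgf7 (0.86) and Hoxa5 (0.85), and 0.50, 0.56, 0.28, 0.45 and 0.56 after the same subtraction. Txnrd1 and Txnip themselves had r = -0.81, and -0.28 within groups.

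The promoter of Txnrd1 is printed because the gene moved together with the Nrf2 targets. The sequence is RefSeq for GRCm38.p6, chr10:82859009-82859178 (plus strand), which ends before the transcription start at 82859206, with bases of exons left out. Capitals mark a match to the core antioxidant response motif TGACNNNGC, searched on both strands and found here on the minus strand 92 bases before the start.
Txnrd1 promoter: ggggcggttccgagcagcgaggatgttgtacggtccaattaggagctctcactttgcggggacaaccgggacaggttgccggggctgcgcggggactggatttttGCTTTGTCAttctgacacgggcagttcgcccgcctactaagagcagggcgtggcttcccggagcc
The motif was in 12.4% of all 32851 promoters of 300 bases and in at least 1 promoter of 14.0% of all 27025 gene symbols. It was in 1 of the 8 genes (Txnrd1, in 1 of its 3 promoters) and in 4 of the 9 Nrf2 targets with a promoter in the table (Gclm, Srxn1, Pgd and Me1). The E-box CACGTG was in 7.15% of promoters and 8.09% of gene symbols, in 1 of the 8 genes (Glrx2) and in 0 of the 9. A match is a description of the letters and no binding was measured.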

How the data were processed

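The deposited table holds FPKM values per gene and mouse, which the authors made by aligning reads to mm10 with GSNAP and estimating expression with SAMtools and Cufflinks. The labels describe a strand-keeping mRNA preparation, the paper names another kit and sequencer, and the series text gives ATG to all mice where the sample labels give saline to some; groups follow the sample labels. The table gives no counts, and low values did not resolve into whole reads (34.2% to 46.6% fell in the commonest step), so depth is known only approximately. Akap5, with failed estimates, was left out. Values were analysed as log2(FPKM + 1) with limma 3.58.1 in R 4.3.3 on group means, for genes of at least 1 FPKM in at least 3 of the mice fitted, averaging over the other factors, with Benjamini-Hochberg adjustment over all genes tested. A gene passed, rose, fell or changed at an adjusted p under 0.05. The 8 genes and all lists were chosen with earlier results of these data known. Named list genes are the 4 that passed with the largest log2 difference per list and comparison, plus all 7 that passed for ATG in hyperoxia, and the 5 most correlated with Txnrd1 and Txnip. Scripts were tested on simulated data. Other pseudocounts, filters, scalings, variance priors, samples in the fit and strata were tried, as was leaving out each mouse. Leaving out C3HM mice 1 and 3 or C3HF mouse 33, and fitting each condition alone, were chosen after seeing the data. Sequences come from GENCODE vM21 and RefSeq (GRCm38). Nothing in the labels says whether mice shared litters or cages. The tests set each difference against the spread within groups and treat mice as independent. Shared litters or cages could therefore make the p-values too small.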

Additional observations from a re-analysis of the deposited data

Results flagged for a closer look

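In 64 groups of 6 mice of 1 strain and condition (8 genes, sexes together), 4 had 1 mouse farther from the rest than Dixon's 95% limit allows, and chance gives about 1 in 20. Txnrd1 was 123 FPKM in C3HF mouse 33 given saline in hyperoxia, the highest of its 6, and Glrx was 150 FPKM in the same mouse. Txn1 was 220 FPKM in C3HM mouse 9 of the same condition. Glrx was 30.2 FPKM in C57BM mouse 13 given saline in room air. In mouse 33 the neutrophil markers summed to 6201 FPKM, the highest of the 48 mice, and the alveolar type 2 markers to 5697 FPKM, the lowest of the 48, and their part in its values was not tested.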

How the results depend on the processing

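No paired analysis was possible because each mouse has its own number. Outside the fits that left out each mouse in turn, 481 values of single genes kept direction and side of the threshold, 29 lost the call, 7 gained it and 34 turned direction, and the cause was not tested. For ATG in room air these were, with quantile normalization, Txnrd3 (-0.00635) and Txnip (0.00105), with median ratio scaling Txn1 (-0.00234) and Txnrd3 (-0.0104), in C3H Txn1 (-0.000297) and Glrx2 (-0.0773), in C57B Txnrd1 (-0.0407), Txnrd3 (-0.0294) and Txnip (0.0431), in males Glrx (0.00551), in females Txnrd1 (-0.161), Txnrd2 (0.161), Txnrd3 (-0.0372) and Txnip (0.217), and without C3HM mice 1 and 3 Txnrd1 (-0.0630), Txnrd3 (-0.0302) and Txnip (0.197). For ATG in hyperoxia they were Txnrd2 with quantile normalization (-0.00107), with median ratio scaling (-0.00202) and in C3H (-0.0921), Txnrd1 in C3H (0.164) and males (0.0912), and Glrx in C3H (0.232) and males (0.134). For hyperoxia after saline they were Txn1 (-0.0577) and Txnrd2 (-0.00658) with quantile normalization, and Txnrd2 with median ratio scaling (-0.0141), in C57B (-0.219) and in males (-0.0693), and after ATG Txn1 (-0.0285) with quantile normalization. Between strains they were Txn2 with median ratio scaling (0.00745) and Txnip without mice 1 and 3 (-0.155) at baseline, and Txnrd2 (-0.127) and Txnip (0.152) in room air after ATG. Leaving out each mouse turned ATG in room air for Txn1 (-0.00686 to 0.0561), Txnrd3 (-0.0184 to 0.0467), Txnip (-0.124 to 0.0707) and Glrx2 (-0.000655 to 0.0877), ATG in hyperoxia for Txnrd1 (-0.0538 to 0.0411) and Glrx (-0.162 to 0.0823), and Txnrd2 in hyperoxia after saline (-0.00175 to 0.0824). None of these had passed the test except Txn1.

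The number of the 8 genes that passed in hyperoxia after saline was 3 in C3H alone (Txnrd1, Txnrd3 and Txnip) and 2 in males alone (Txnrd1 and Txnip), each with fewer mice, and 6 to 7 when 1 mouse was left out. At baseline between strains it was 2 with quantile normalization and 2 with median ratio scaling (Glrx and Glrx2), 2 with all 48 mice (Txnrd1 and Glrx2), 0 with eBayes without trend, 0 without mice 1 and 3, and 0 to 4 when 1 mouse was left out, with 4 only without C3HM mouse 2, a fit for which no share of all genes is given. In the 36 mice it was 0 for room air after ATG alone and 3 to 4 when 1 mouse was left out. For the strain difference of the hyperoxia response it was 1 with median ratio scaling (Glrx2), 1 with all 48 mice (Txnrd2), and 0 to 1 when 1 mouse was left out. It was 0 to 5 for sex, and 0 to 1 for the sex difference of hyperoxia (Glrx without C57BM mouse 19), for ATG in hyperoxia and for the air difference of ATG (Txn2 in each). Txnrd1 and Txnip kept direction and call in hyperoxia in every setting run. Over all genes, the higher share of calls for ATG in hyperoxia was 71.1%, but 45.6% with quantile normalization and 41.5% with median ratio scaling, and 868 calls became 280 in C3H, 1 in C57B, 0 in males and 9 in females. For strain at baseline it was 33.2%, against 51.2% and 48.5%, for the strain difference of hyperoxia 75.6%, against 49.1% and 45.7%, for the air difference of ATG 56.4%, against 34.7% and 32.7%, and for sex 35.6%, against 55.2% and 55.6%. Over all genes, 9803 calls for hyperoxia after saline became 5164 in C3H and 6403 in males, 104 calls for sex became 40 with no filter, 30 without mice 1 and 3 and 1915 with all 48 mice, and with all 48 mice 1832 calls for strain at baseline became 2982, 1880 for the strain difference of hyperoxia became 2994 and 6 for the sex difference became 306.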
